A study of Mus musculus with 6 samples.

Results

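Translation initiation factor genes are the genes whose products place the ribosome on the start codon of a messenger RNA. They were taken as the mouse gene symbols that begin with Eif and a digit and that held at least 50 RNA-seq counts over the naive and the peak library together. Of 59 such symbols in the count table, 54 passed that limit, among 14367 genes of 42303 rows in all that did. The 54 comprise 50 genes and 4 symbols named as pseudogenes. Just inside the limit were Eif3s6-ps1 (52 naive and 102 peak counts), Eif5al3-ps (58 and 159) and Eif3s6-ps2 (71 and 180). Just outside it were Eif4ebp3 (12 and 26 counts) and Eif1-ps1 (17 and 8), and Eif1-ps3, Eif3s6-ps4 and Eif4e1b held 0 counts. Genes on the X and Y chromosomes, among them Eif1ax, Eif2s3x and Eif2s3y, were not analysed here.

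The cells were microglia, the resident macrophages of the central nervous system, sorted on F4/80 and CD45 after a 30% and 70% Percoll gradient. The naive group was unimmunised, and the peak group was taken when disease scores had stopped rising in EAE (experimental autoimmune encephalomyelitis), an inflammatory demyelinating disease induced with MOG peptide 35 to 55 at 24 to 28 weeks of age. The sources used here do not give the age of the naive mice. All mice of both groups were Ccr2rfp/+::Cx3cr1gfp/+ on a C57Bl/6 background, so naive and peak mice alike had a reporter in place of 1 copy of Ccr2 and 1 copy of Cx3cr1. The labels name brains and spinal cords as the source and the design text names brains. Each condition had 1 RNA-seq library and 2 libraries of captured methylated DNA (MiGS, in which fragments bound by a methyl-CpG binding domain are sequenced). Each library is listed with a pool of 30 mice, and DNA and RNA came from the same samples. No label says whether the 2 MiGS libraries of a condition came from separate pools.

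Initiation in the cytosol runs in steps. The factor eIF2 brings the initiator methionyl-tRNA to the small ribosomal subunit, where eIF1, eIF1A, eIF3 and eIF5 join it. The cap-binding protein eIF4E, the scaffold eIF4G and the helicase eIF4A bring this complex to the messenger RNA, and eIF5B joins the large subunit at the start codon. Stress-activated kinases slow initiation through eIF2, and 4E-binding proteins slow it through eIF4E. In macrophages and microglia, protein synthesis supports the output of cytokines, and the interferon-induced kinase of this family limits translation in virus-infected cells.

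RNA-seq totals were 31282093 naive and 36561934 peak counts. Initiation factor genes took 137615 counts, or 0.440%, of the naive library and 198457, or 0.543%, of the peak library. No test was possible on 1 library each, and ratios are peak over naive after TMM scaling (a scaling that trims extreme genes), with 95% intervals that cover counting error only. The labelled cell type was checked against 9 microglia markers, all present at a median of 1078 FPKM (fragments scaled for gene length and library total) naive and 513 FPKM peak, with 984354 and 705554 counts in sum. All 9 had the whole interval below 1, beside 37.0% of all genes, and 3 were at least 2-fold lower, beside 9.35%. Markers of other cells moved too. The 10 monocyte markers summed to 1544 naive and 39139 peak counts, of which the fibronectin gene Fn1 had 816 and 35840, and 8 genes of DNA replication and mitosis summed to 2382 and 28995. Markers of T cells summed to 97 and 340 counts, with the receptor complex genes Cd3e and Cd3g at 0 naive and at 2 and 21 peak counts and Cd8a at 0 and 9. The 6 neutrophil markers summed to 466 and 695 counts and disagreed, with Cxcr2 at 7 and 61, S100a9 at 231 and 267, Camp at 54 and 16 and Ly6g at 0 and 2. Markers of some other cells had lower sums at peak: astrocytes 27619 and 15051, endothelial cells 4343 and 2235, and erythroid cells 5283 and 1716, with 4 of 6, 5 of 6 and 4 of 4 genes at least 2-fold lower. The astrocyte markers disagreed, since Gfap had 89 naive and 258 peak counts, 2.63-fold higher (interval 2.07 to 3.40). Oligodendrocyte markers summed to 3346 and 3611 counts, neuron markers to 292 and 310 and B cell markers to 675 and 541. Of 5 oligodendrocyte markers measured, 2 were at least 2-fold lower, while Mag was 1.43-fold higher. The part of such cells in the ratios below was not tested. In bulk libraries, fewer cells of a type and less RNA per cell cannot be told apart.

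Most initiation factor genes were somewhat higher in the peak library, and few reached 2-fold. Of the 54, 5 were at least 2-fold higher and 0 were at least 2-fold lower, where 11.6% of all 14367 genes were at least 2-fold higher and 9.35% lower. Among genes with at least 1000 counts, 3 of 50 initiation factor genes were 2-fold higher, beside 9.34% of all 7998 such genes, and 3.11% of those were 2-fold lower. The median log2 ratio was 0.38, with the middle part of the genes (lower to upper quartile) between 0.12 and 0.74, beside -0.00 and -0.41 to 0.45 for all genes. A ratio above 1 was found for 42 of 54 (77.8%), beside 49.8% of all genes. The whole interval lay above 1 for 39 of 54, beside 38.5% of all genes, and below 1 for 7, beside 37.0%. The sign of the log2 ratio turned with another scaling for 5 genes, Eif2b1, Eif2b5, Eif3d, Eif3j1 and Eif4e2.

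**Figure D1:**
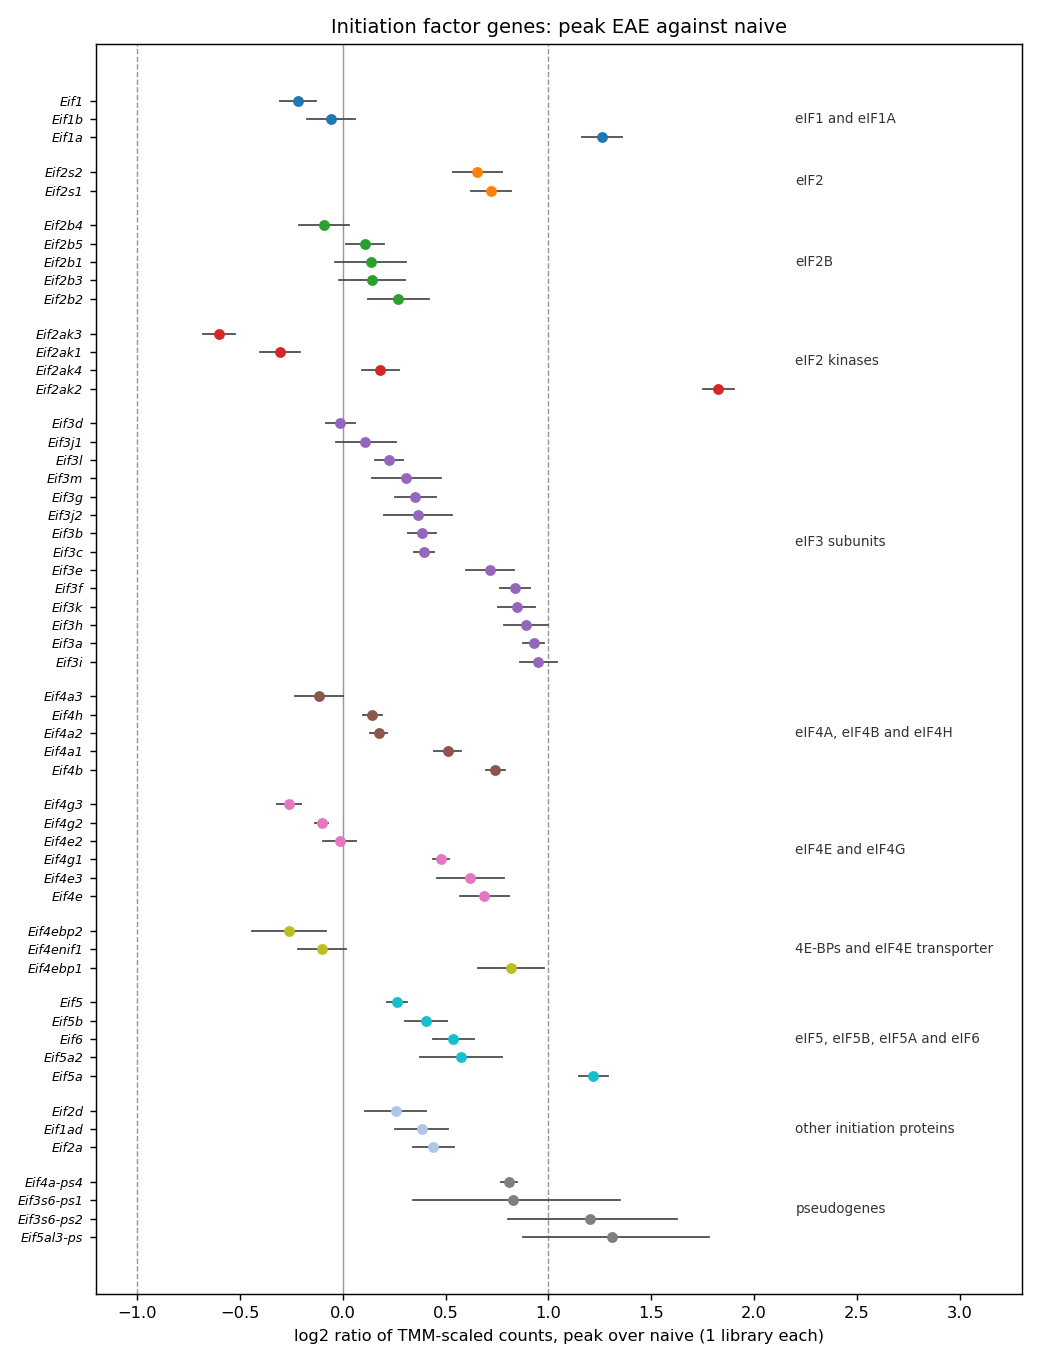
Log2 ratio of TMM-scaled RNA-seq counts, peak over naive, for the 54 initiation factor genes, grouped by role; bars are 95% counting intervals, dashed lines mark 2-fold. Eif2ak2 lies farthest right at 1.83, Eif2ak3 farthest left at -0.60, and 13 of 14 eIF3 subunits lie above 0.

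The 4 kinases that phosphorylate the alpha subunit of eIF2 spread more widely than any other role group, from -0.60 to 1.83 on the log2 scale. Eif2ak2 (PKR, activated by double-stranded RNA and induced by interferon; chromosome 17, 78850504 to 78882572) had 1717 naive and 6690 peak counts. The peak value was 3.54-fold higher (interval 3.36 to 3.74), the highest ratio of the 54 genes, and its level went from 10.7 to 35.8 FPKM. Eif2ak3 (PERK, a sensor of unfolded proteins in the endoplasmic reticulum; chromosome 6, 70844484 to 70905241) had 3219 naive and 2329 peak counts. Its peak value was 1.52-fold lower (interval 1.44 to 1.60), the lowest ratio of the 54. Eif2ak1 (HRI, a heme-regulated kinase) had 1842 and 1638 counts, 1.24-fold lower (1.16 to 1.32). Eif2ak4 (GCN2, activated when amino acids are scarce) had 1781 and 2223 counts, 1.14-fold higher (1.07 to 1.21). Thus 2 kinases were higher and 2 lower, and the intervals of none of the 4 reached 1. Eif2ak2 made up 20.1% of the counts of the 4 kinases in the naive library (exact binomial 95% interval 19.2% to 20.9%) and 51.9% in the peak library (51.1% to 52.8%). In FPKM, Eif2ak3 held the highest level of the 4 kinases in the naive library (17.1) and Eif2ak2 in the peak library.

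The promoter of Eif2ak2 is shown because it holds a pair of GAAA units of the kind bound by interferon regulatory factors. Promoters were taken from RefSeq (build GRCm38.p6, 250 bases before to 50 after each listed start), which matched 40 of the 54 genes with 53 starts. A pair of GAAA separated by any 2 bases, searched on both strands, was found in 3 of the 40 genes (7.5%), beside 4.10% of 9869 genes with at least 50 counts and a promoter. All 3 are printed 5′ to 3′ along the gene with the match in capitals.
Eif2ak2, chr17:78882543-78882584, minus strand: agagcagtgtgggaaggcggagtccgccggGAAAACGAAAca
Eif2s1, chr12:78861830-78861899, plus strand: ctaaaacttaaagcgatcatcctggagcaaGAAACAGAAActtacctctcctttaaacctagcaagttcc
Eif3a, chr19:60790865-60790934, minus strand: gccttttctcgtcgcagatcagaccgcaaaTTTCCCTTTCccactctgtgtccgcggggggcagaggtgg
In Eif2ak2 the match begins at base 19 of the transcript, in Eif2s1 at base -212 and in Eif3a, on the opposite strand, at base -211. The 3 genes had log2 ratios of 1.83, 0.72 and 0.93, and the median of all 405 genes with a match was 0.30. A match describes letters, and binding was not measured.

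The substrate of these kinases and its exchange factor differed in their ratios. Eif2s1, which encodes the alpha subunit of eIF2, had 1319 naive and 2388 peak counts, 1.65-fold higher (interval 1.54 to 1.76). Eif2s2, the beta subunit gene, had 922 and 1595 counts, 1.57-fold higher. The 5 genes of eIF2B, the guanine nucleotide exchange factor that recharges eIF2, lay closer to 1. Their median log2 ratio was 0.14, which turned to just below 0 with upper quartile scaling, and 3 of the 5 intervals spanned 1. Eif2b2 was the highest at 1.21-fold (641 and 850 counts), followed by Eif2b3, Eif2b1 and Eif2b5. Eif2b4 had 1104 and 1140 counts and was 1.06-fold lower (interval from 0.979 to 1.16).

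Genes of the integrated stress response, a list of regulators of eIF2 phosphorylation and of genes downstream of it, were mixed. Of 18 measured genes, 5 were at least 2-fold higher and 1 lower, beside 11.6% and 9.35% of all genes. Their median log2 ratio was 0.36. The asparagine synthetase gene Asns had 23 naive and 352 peak counts (13.7-fold higher, interval 9.13 to 22.3). Chac1, a glutathione-degrading enzyme, had 2 and 62 counts (22.7-fold, interval 7.49 to 238), and the pseudokinase gene Trib3 had 10 and 85 counts (7.41-fold). The lipoprotein receptor gene Vldlr had 205 and 63 counts, 3.56-fold lower. The others at least 2-fold higher were Psat1, of serine synthesis (1213 and 3468 counts, 2.60-fold), and the transcription factor gene Cebpb (1734 and 4377, 2.30-fold). Among the other transcription factor genes Atf4 had 5022 and 6976 counts (log2 ratio 0.34), Atf3 4420 and 6580 (0.44), Cebpg 6452 and 5225 (-0.44) and Ddit3 897 and 785 (-0.33).

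The 14 genes of eIF3, the large scaffold that holds the small subunit, were higher nearly throughout. Of them 13 had a ratio above 1, beside 49.8% of all genes, and 12 had the whole interval above 1, beside 38.5%. At least 2-fold higher were 0, beside 11.6% of all genes. A ratio above 1 was also found for 34 of 34 mitochondrial complex I genes and 36 of 37 proteasome subunit genes. The median log2 ratio was 0.39. The signs of Eif3d and Eif3j1 turned with another scaling. The summed counts were 29646 naive and 47761 peak. Eif3i, a beta-propeller subunit, had 1473 and 3128 counts (1.93-fold, interval 1.82 to 2.06). Eif3a, the largest subunit, had 4436 and 9280 counts (1.90-fold, 1.84 to 1.97). Eif3h had 1087 and 2214 counts (1.85-fold, 1.72 to 1.99), Eif3k 1533 and 3029 (1.80-fold, 1.69 to 1.91) and Eif3f 2286 and 4489 (1.79-fold, 1.70 to 1.88). These 5 intervals lay wholly above those of Eif3b (2830 and 4063 counts) and Eif3c (5626 and 8123), whose ratios were 1.31 each.

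The ratios within eIF3 thus differed by more than counting error. Eif3e, whose product touches eIF4G, had 960 and 1732 counts and lay between these 5 genes and Eif3b at 1.64-fold (interval 1.52 to 1.78). Below Eif3b were Eif3j2 (516 and 730 counts), Eif3g, a subunit with an RNA recognition motif (1461 and 2052), Eif3m (502 and 684), Eif3l (3121 and 4008) and Eif3j1 (712 and 845), from 1.29-fold down to 1.08-fold. Eif3d, which can itself bind the cap of some messenger RNAs, had 3103 and 3384 counts and a ratio of 0.992 (interval 0.945 to 1.04). Levels of the 14 genes differed more than their ratios did. In the naive library they ran from 3.90 FPKM for Eif3j1 to 63.4 FPKM for Eif3k with a median of 27.2, and in the peak library from 3.96 to 107 FPKM, with the same genes at both ends and a median of 45.4.

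**Figure D2:**
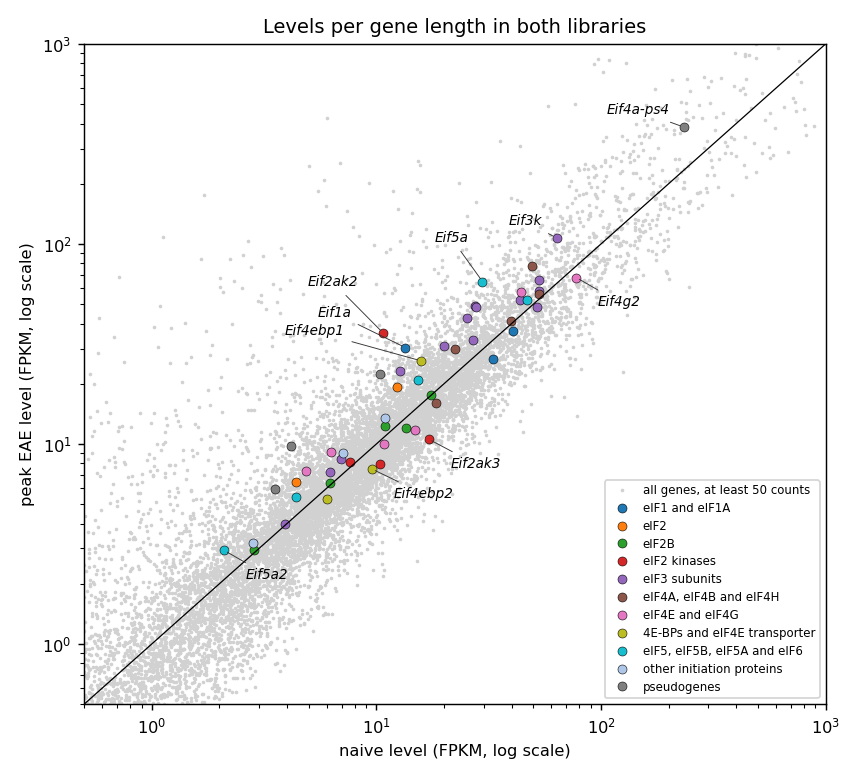
Level per gene length (FPKM, log scales) in the naive (horizontal) and peak (vertical) RNA-seq library for initiation factor genes, coloured by role, over all genes with at least 50 counts (grey); the line marks equal levels. Eif4a-ps4 stands at the top, at 233 and 384 FPKM, and Eif5a2 at the bottom, at 2.10 and 2.94 FPKM.

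Levels of initiation factor genes were mostly above those of the other genes. The median was 14.2 FPKM naive and 20.02 peak, beside 5.80 and 5.98 FPKM over all 14367 genes. The order of the 50 genes not named as pseudogenes was much the same in both libraries (Pearson's r = 0.946 and Spearman's rho = 0.949 of log2 FPKM, as a description across genes that share both libraries and their lengths). The highest levels in the naive library were those of Eif4a-ps4 (233 FPKM), Eif4g2 (77.6), Eif3k (63.4), Eif3c (53.2) and Eif4a2 (52.8). In the peak library they were Eif4a-ps4 (384 FPKM), Eif3k (107), Eif4b (77.6), Eif4g2 (67.9) and Eif3c (65.7). The lowest were Eif5a2 (2.10 FPKM naive and 2.94 peak), Eif2d (2.83 and 3.18) and Eif2b3 (2.84 and 2.95), with Eif3s6-ps1 (3.54) and Eif3j1 (3.90) next in the naive library and Eif3j1 (3.96) and Eif4enif1 (5.28) next in the peak library. The naive level had almost no relation to the ratio across the 50 genes (r = 0.00 and rho = 0.03).

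The genes of the cap-binding complex differed within each family. Eif4e, which encodes the main cap-binding protein, had 912 naive and 1615 peak counts, 1.61-fold higher (interval 1.48 to 1.75). Eif4e3, a divergent cap-binding relative, was close to it at 1.54-fold (496 and 838 counts), while Eif4e2, a relative that represses translation, had 2528 and 2749 counts and a ratio of 0.990, whose sign turned with another scaling. Eif4g1, the main scaffold, had 9956 and 15238 counts, 1.39-fold higher (1.36 to 1.43). Its paralog Eif4g3 had 5163 and 4739 counts, 1.20-fold lower (1.15 to 1.25). Eif4g1 thus took 65.9% of the reads of the pair in the naive library (exact binomial 95% interval 65.1% to 66.6%) and 76.3% in the peak library (75.7% to 76.9%). Eif4g2, a shorter relative that lacks the part binding eIF4E, had 17836 and 18255 counts, 1.07-fold lower (1.05 to 1.10).

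The 4E-binding proteins hold eIF4E away from eIF4G until the kinase mTOR phosphorylates them. Eif4ebp1 had 483 naive and 935 peak counts, 1.76-fold higher (interval 1.58 to 1.97). Eif4ebp2, the form prominent in brain, had 534 and 489 counts, 1.20-fold lower (1.06 to 1.36). Eif4ebp1 accounted for 47.5% of their joint counts in the naive library (44.4% to 50.6%) and 65.7% in the peak library (63.1% to 68.1%). Per length, Eif4ebp1 was the higher gene in both libraries, at 15.7 and 26.1 FPKM against 9.56 and 7.49 for Eif4ebp2. Eif4enif1, which shuttles eIF4E into the nucleus, had 1198 and 1229 counts, 1.07-fold lower (0.988 to 1.16).

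Genes of mTOR complex 1, its regulators and the kinases of eIF4E more often had a lower than a higher ratio. The interval lay wholly below 1 for 11 of 19, beside 37.0% of all genes, and above 1 for 4, beside 38.5%. Of these 19 genes 0 were at least 2-fold higher and 3 lower, beside 11.6% and 9.35% of all genes. Their median log2 ratio was -0.18. Ddit4, an inhibitor of mTOR complex 1, had 4287 naive and 1462 peak counts (3.22-fold lower), Pdcd4, an inhibitor of eIF4A, had 1904 and 956 (2.19-fold lower), and the complex's subunit gene Rptor had 12822 and 6999 (2.01-fold lower). Sesn1, a sestrin that restrains mTOR complex 1, had 6832 and 3757 counts, a log2 ratio of -0.999 just short of 2-fold. The kinase gene Mtor itself had 4119 and 4288 counts, with a log2 ratio of -0.08. Of 11 poly(A)-binding and cap partner genes 1 was higher, the poly(A)-binding protein gene Pabpc1 (3661 and 8291 counts, 2.06-fold). The others included Paip2, which keeps Pabpc1's product off the poly(A) tail (2978 and 2208 counts, 1.48-fold lower), Ctif (501 and 382, 1.44-fold lower) and Cyfip1 (37768 and 32231, 1.29-fold lower).

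The helicase genes were measured together with a pseudogene. Eif4a1, the main helicase of initiation, had 3027 naive and 4739 peak counts, 1.42-fold higher (interval 1.36 to 1.49). Eif4a2, its paralog, had 8822 and 10946 counts, 1.13-fold higher (1.10 to 1.16). Eif4a1's share of the pair was 25.5% (24.8% to 26.3%) naive and 30.2% (29.5% to 30.9%) peak. Eif4a-ps4 had 8892 and 17115 counts (1.75-fold, 1.71 to 1.80), and its level of 233 and 384 FPKM was above that of Eif4a1 (22.3 and 29.9 FPKM). Pseudogenes of this kind can be near copies of their parent gene, and the sources used here do not give how reads matching both were counted, so the split between Eif4a1 and Eif4a-ps4 is uncertain. Eif4a1 was presumed to be the parent, which was not checked, and the symbol does not tell Eif4a1 from Eif4a2. The summed counts of Eif4a1 and Eif4a-ps4 went from 11919 to 21854, 1.67-fold higher (1.63 to 1.71). Under that presumption they took 57.5% of the joint reads with Eif4a2 in the naive and 66.6% in the peak library.

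The helicase's helpers and a relative with another task were less uniform. Eif4b, which stimulates the helicase, had 5949 naive and 10932 peak counts, 1.67-fold higher. Eif4h, a smaller stimulator, had 6919 and 8402 counts, 1.11-fold higher. Eif4a3, a helicase that sits in the exon junction complex and not in the cap complex, had 1219 and 1236 counts, a ratio of 0.923 (interval 0.852 to 0.999).

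Of Eif1a, Eif1 and Eif1b only Eif1a had a whole interval above 1. Eif1a (chromosome 18, 46597704 to 46610225), which keeps the scanning ribosome open together with eIF1, had 1212 naive and 3193 peak counts, 2.40-fold higher (interval 2.24 to 2.56). Eif1 had 2167 and 2051 counts, 1.16-fold lower (1.09 to 1.23), and its paralog Eif1b 1162 and 1228, 1.04-fold lower (0.959 to 1.13). The level of Eif1a went from 13.5 to 30.3 FPKM while that of Eif1 went from 33.0 to 26.7 FPKM, so their order was reversed between the libraries. Other genes named for initiation were somewhat higher: Eif2a (1352 and 2017 counts) at 1.36-fold, Eif1ad (847 and 1215) at 1.31-fold and Eif2d (653 and 858) at 1.20-fold.

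Late factors were all higher: the whole interval lay above 1 for 5 of 5, beside 38.5% of all genes. Eif5a (chromosome 11, 69916712 to 69921958), whose product carries the modified amino acid hypusine and helps ribosomes through difficult peptide bonds, had 2206 naive and 5638 peak counts, 2.33-fold higher (interval 2.21 to 2.44). Its paralog Eif5a2 had 330 and 540 counts, 1.49-fold higher, and Eif5a took 87.0% of their reads in the naive and 91.3% in the peak library (intervals 85.6% to 88.3% and 90.5% to 92.0%). Eif6, which keeps the large subunit from joining too early, had 1291 and 2060 counts, 1.45-fold higher (1.35 to 1.56). Eif5, which triggers GTP hydrolysis by eIF2, had 5921 and 7822 counts, 1.20-fold higher (1.16 to 1.24), and Eif5b 1336 and 1942, 1.32-fold higher. The enzymes that make hypusine, Dhps (562 and 826 counts, 1.34-fold) and Dohh (673 and 950, log2 ratio 0.36), were higher as well. Of 8 genes of hypusine and polyamine synthesis 0 reached 2-fold, beside 11.6% of all genes higher and 9.35% lower. The polyamine enzyme gene Odc1 came closest, with 570 and 1235 counts (1.97-fold), ahead of its inhibitor Oaz1 (664 and 1269, 1.74-fold), and Amd1 was the one gene of the 8 below 1 (943 and 798, 1.30-fold lower).

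The remaining pseudogene symbols held few reads. Eif5al3-ps was 2.48-fold higher (interval 1.84 to 3.43), Eif3s6-ps2 2.30-fold (1.74 to 3.08) and Eif3s6-ps1 1.78-fold (1.27 to 2.54). The intervals of the first pair reached below 2-fold, so the 2-fold set whose whole interval lay past 2-fold was Eif2ak2, Eif1a and Eif5a. Adding the pseudogenes' counts to Eif5a and Eif3e, their presumed parents by name, gave ratios of 2.33 and 1.69. Without them the ratios were 2.33 and 1.64.

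The E-box CACGTG, the site recognised by MYC, USF and related factors, is shown because it was found near several factor genes with higher ratios. It reads the same on both strands. It was found at any listed start of 10 of the 40 genes with a promoter (25%), beside 11.6% of the 9869 genes. Windows from Eif5a, Eif4e, Eif3a, Eif3k and Eif4a1 are printed, 5′ to 3′ along the gene, with the E-box in capitals.
Eif5a, chr11:69920773-69920838, minus strand: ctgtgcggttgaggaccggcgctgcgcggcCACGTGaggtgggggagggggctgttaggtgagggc
Eif5a, chr11:69921425-69921490, minus strand: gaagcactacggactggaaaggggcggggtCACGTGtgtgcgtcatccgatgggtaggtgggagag
Eif4e, chr3:138527018-138527075, plus strand: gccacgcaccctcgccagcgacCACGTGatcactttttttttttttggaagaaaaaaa
Eif4e, chr3:138527174-138527239, plus strand: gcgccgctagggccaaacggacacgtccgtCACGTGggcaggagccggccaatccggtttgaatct
Eif3a, chr19:60790664-60790701, minus strand: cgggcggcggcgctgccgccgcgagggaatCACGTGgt
Eif3k, chr7:28981897-28981962, minus strand: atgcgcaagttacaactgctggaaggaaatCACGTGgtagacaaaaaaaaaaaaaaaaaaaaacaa
Eif4a1, chr11:69672577-69672642, minus strand: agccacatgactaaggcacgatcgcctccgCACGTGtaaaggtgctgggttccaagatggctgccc
The other genes with the E-box were Eif1b, Eif3f, Eif4g1, Eif4h and Eif5a2. The median log2 ratio of the 10 genes was 0.63 and that of the 30 without it 0.20, and 9 of the 10 and 20 of the 30 had a ratio above 1. Over all genes the medians were 0.06 with the E-box and -0.00 without it. Eif1b, at -0.06, was the exception among the 10. The E-box was searched with the earlier ratios known, binding was not measured, and no test was made.

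Other motifs were spread differently. CCGGAAG, the core bound by ETS factors, was found in 15 of 40 genes (37.5%), beside 20.1% of all genes, with a median log2 ratio of 0.22 with and 0.39 without it. CCAAT was found in 15 of 40 (37.5%), beside 42.7%. TGATGNAA, the letters bound by ATF4 with a C/EBP partner, was found in 0 of the 40 genes, beside 2.82% of all genes. A YY1 element and a CG-centred palindrome, each of 10 letters, were found in 0 of 40 too, beside 2.27% and 1.10%. All 7 motifs were searched on both strands, and none contains another. A run of pyrimidines (C or T) that begins with C was also searched, along the gene only. At the listed start it was found for 1.89% of the 53 starts. This was beside 2.32% for all genes with at least 50 counts and 18.4% for ribosomal protein genes. A longer run near the start was found for 20.8%, beside 19.9% and 47.4%. The promoters were rich in CpG: 38 of 40 genes (95%) had a start with observed over expected CpG above 0.6, beside 75.5% of the 9869 genes. The median number of CpG per 300 bases was 24 over the 53 starts, 20 over the starts of all genes with at least 50 counts and 7 over all 32851 listed promoters.

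Captured DNA was sparse around gene starts, both of these genes and of all genes. Of 40 genes whose strand was known, 29 (72.5%) had 0 recovered reads in all 4 MiGS libraries from 1000 bp before to 500 bp after the start, beside 68.3% of 9869 genes. A count of 0 allows up to 3 reads. In the first 500 bp of the gene the mean captured signal per kb was 0 in naive replicate 1, 0.174 in naive replicate 2 and 0 in both peak replicates. Over the 9869 genes it was 3.93, 8.82, 3.37 and 4.28. The share of genes with any read there was 0%, 2.5%, 0% and 0% for initiation factor genes and between 8.30% and 9.48% for all genes. In the 500 bp before the start that share was 10%, 7.5%, 10% and 10%, beside 7.64% to 9.83% of all genes. Mean signal per kb before the start was 1.99, 1.16, 2.24 and 1.18, beside 2.65, 4.52, 2.97 and 2.73. From 2000 to 2500 bp inside the gene the mean went up to 25.2 and 63.4 (naive) and to 18.1 and 33.5 (peak) per kb, carried by 12.5% to 27.5% of the 40 genes. There the mean over the 9869 genes was 11.7 and 16.5 (naive) and 12.3 and 12.6 (peak), carried by 18.2% to 22.4% of them.

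**Figure D3:**
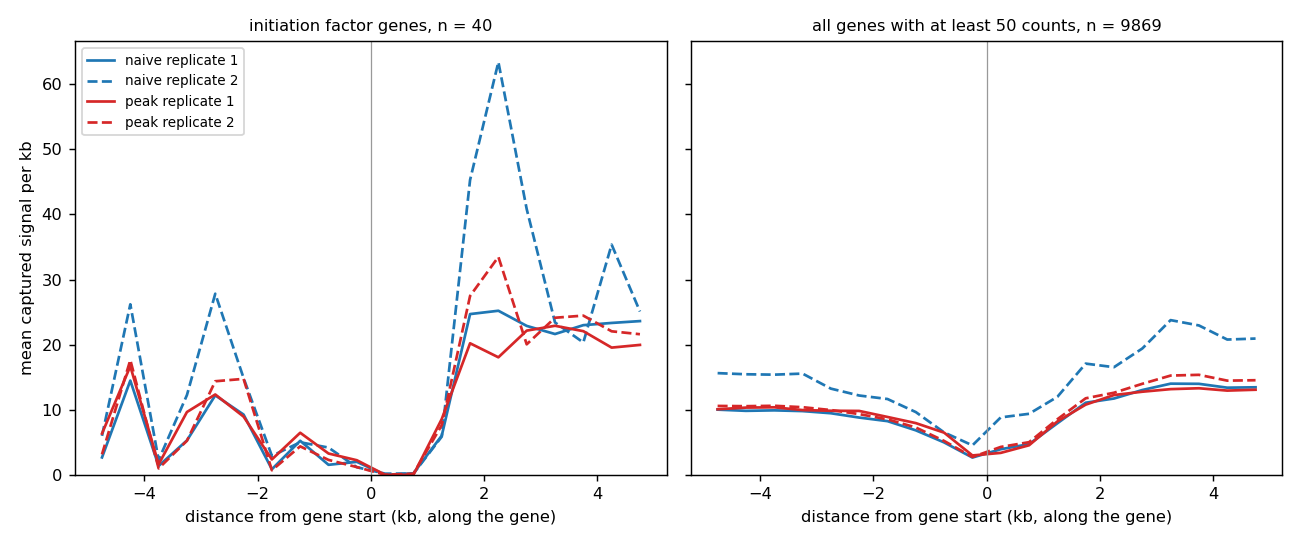
Mean captured signal per kb in bins of 500 bp from 5000 bp before to 5000 bp after the gene start, in each MiGS library, for 40 initiation factor genes (left) and 9869 genes with at least 50 counts (right). The lines for initiation factor genes touch or nearly touch 0 in the first 1000 bp of the gene in all 4 libraries, and naive replicate 2 is the highest line from 1500 to 3000 bp.

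No difference in captured signal at gene starts passed the main test, which used no replicate block. Calls with such a block, at starts or ends and over bodies, are given in the closing section. The regions were the start (from 1000 bp outside to 500 bp inside) or, for the 14 genes of unknown strand, both gene ends, and 14 of the 54 genes held the 20 reads needed. Limma called 0 of these 14 and 0 of all 11241 regions tested (0.0% higher and 0.0% lower, adjusted p under 0.05), and 565 regions, 1 of them of an initiation factor gene, had an unadjusted p under 0.05. The edgeR test on recovered reads and DESeq2 called 0 of 14 as well. With 2 against 2 libraries few differences could pass, so these counts of 0 do not show that signal was the same. The smallest p for higher signal was at both ends of Eif3i, with 16.7 and 4.65 per kb naive (10.6 ± 8.49, SD, n = 2) and 26.5 and 33.2 per kb peak (29.8 ± 4.74). Both peak libraries lay above both naive ones there (log2 change 1.71, SE 0.62, limma adjusted p = 0.889). Next were Eif2b3 (2.21, SE 1.45) and Eif3s6-ps1 (1.32, SE 1.03) with higher signal, and Eif3s6-ps2 (-0.72, SE 0.67), Eif4a2 (-2.17, SE 2.04) and Eif3j2 (-1.43, SE 2.19) with lower signal at peak. Peak libraries lay above naive ones without overlap at 4 of the 14 genes and below them at 0, beside 19.0% and 13.9% of all regions.

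Gene bodies (the gene less 500 bp at both ends) could be tested for 46 of the 51 genes long enough to have one. Limma without a replicate block called 0 of the 46 and 0 of all 19012 bodies (0.0% higher and 0.0% lower). An unadjusted p under 0.05 was found for 642 bodies, 2 of them of initiation factor genes. The edgeR test without a replicate block and DESeq2 called 0 as well. The limit given for gene starts applies here too. Eif2b1 (chromosome 5, 124570214 to 124579131) held 24.1 and 5.26 per kb naive (14.7 ± 13.3, SD, n = 2) and 40.2 and 30.9 per kb peak (35.6 ± 6.57). The peak libraries were both higher, and naive replicate 2 stood lowest (log2 change 1.63, SE 0.58, limma adjusted p = 0.966). Eif3m (chromosome 2, 104999656 to 105017027) had 9.83 and 20.4 per kb naive (15.1 ± 7.47) and 3.94 and 7.12 peak (5.53 ± 2.25). Both peak libraries were lower (-1.41, SE 0.52, limma adjusted p = 0.966). Next were Eif4enif1 (0.89, SE 0.55) and Eif3j1 (1.02, SE 0.72) with higher signal and Eif3i (-0.89, SE 0.47) and Eif1b (-0.82, SE 0.48) with lower signal at peak. The body of Eif3i and its ends thus had opposite signs. Libraries of the conditions did not overlap at 14 of the 46 bodies, with peak above at 6 and below at 8, beside 13.1% and 15.0% of all bodies.

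Signal over gene bodies ranged widely between genes. Eif1b had the most, at 132 and 310 per kb naive and 81.4 and 160 peak. It was followed by Eif3d (97.7 and 114, then 70.3 and 99.9) and Eif2b2 (68.5 and 105, then 51.6 and 73.4). The bodies of Eif1, Eif1ad, Eif3j2 and Eif5a had 0 reads in the 4 libraries and that of Eif4a1 had 9, all in naive replicate 2. Eif2ak2, with the highest RNA ratio, had 23.9 and 20.4 per kb naive and 23.8 and 21.8 peak over its body, a log2 change of 0.04 (SE 0.37). Eif2ak3, with the lowest, had 26.8 and 52.8 naive and 25.4 and 29.5 peak (-0.46, SE 0.39). Across the 46 genes the change over the body and the RNA ratio had a Pearson's r of 0.12 and a Spearman's rho of -0.03, given as a description of genes that share the same libraries.

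**Figure D4:**
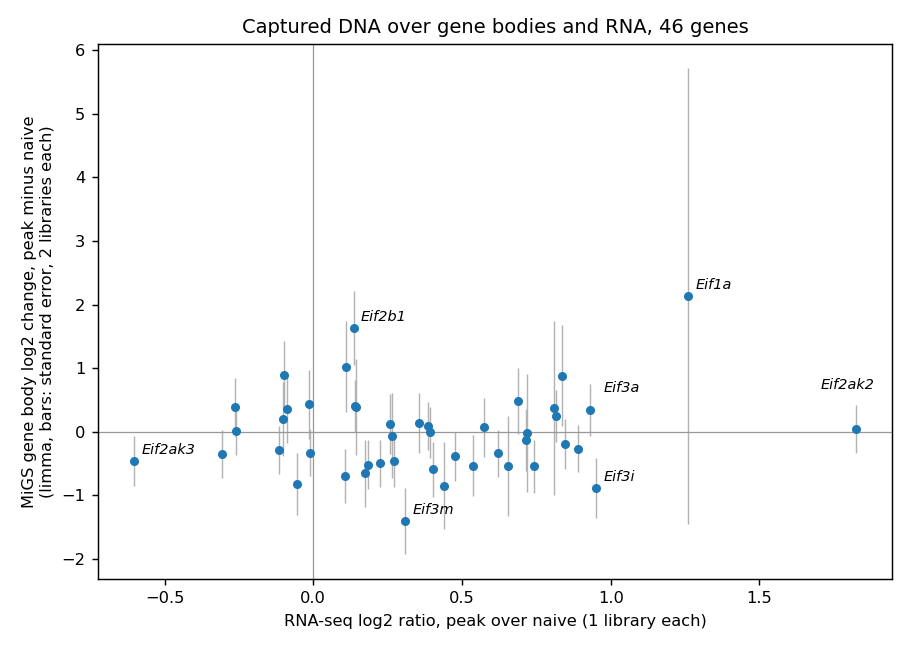
Change of captured signal over the gene body (limma log2 change, peak minus naive, 2 libraries each; bars are standard errors) against the RNA-seq log2 ratio (1 library each) for 46 initiation factor genes. Eif2ak2, farthest right, lies at 0.04 on the vertical axis, and the wide bar of Eif1a rests on reads in peak replicate 1 alone.

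Other genes of protein synthesis put these ratios in context. Over all 14367 genes, 11.6% were at least 2-fold higher and 9.35% lower. Of 12 elongation factor genes 3 were at least 2-fold higher and 1 lower, with a median log2 ratio of 0.46. Eef1a1, which delivers aminoacyl-tRNA, had 34002 naive and 79521 peak counts (2.13-fold), Eef1b2 2965 and 7770 (2.38-fold) and Eef1g 1011 and 2486 (2.24-fold), while Eef2k, the kinase that inhibits elongation factor Eef2, had 11552 and 6190 (2.05-fold lower). Of 22 cytosolic aminoacyl-tRNA synthetase genes 3 were higher, Gars (2.60-fold), Vars (2.29-fold) and Wars (2.11-fold), and 0 lower, with a median of 0.54. Rars had 1480 and 2983 counts (1.83-fold). Of 81 ribosomal protein genes 31 were higher and 0 lower, with a median of 0.83, and this family holds many pseudogene copies. Of 7 re-initiation and recycling genes 0 reached 2-fold (median 0.41). Among them Etf1, the release factor, was 1.91-fold, Denr 1.78-fold, Abce1, which splits ribosomes, 1.40-fold and Mcts2 1.33-fold higher.

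Genes that make ribosomes or serve the mitochondrial ribosome had medians near that of all genes. Of 18 ribosome biogenesis genes 1 was higher, Npm1 (879 and 2630 counts, 2.72-fold), and 1 lower, the MYC family gene Mycl (2252 and 549, 4.51-fold lower), with Rrs1 at 1.93-fold and Nop58 at 1.73-fold higher. Myc itself had 1291 and 1364 counts (log2 ratio -0.06). Of 9 mitochondrial initiation and elongation genes 0 reached 2-fold, with Tufm at 1.51-fold, Tsfm at 1.46-fold and Gfm1 at 1.26-fold higher and Mtif3 at 1.47-fold lower. The medians of the ribosome biogenesis and mitochondrial lists were 0.10 and 0.07, and both turned below 0 with upper quartile scaling. Families outside translation had medians close to that of the initiation factors: proteasome subunits 0.50 (37 genes), splicing factors 0.38 (34 genes) and subunits of mitochondrial complex I 0.43 (34 genes). A shift of this size was therefore not particular to initiation factor genes.

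**Figure D5:**
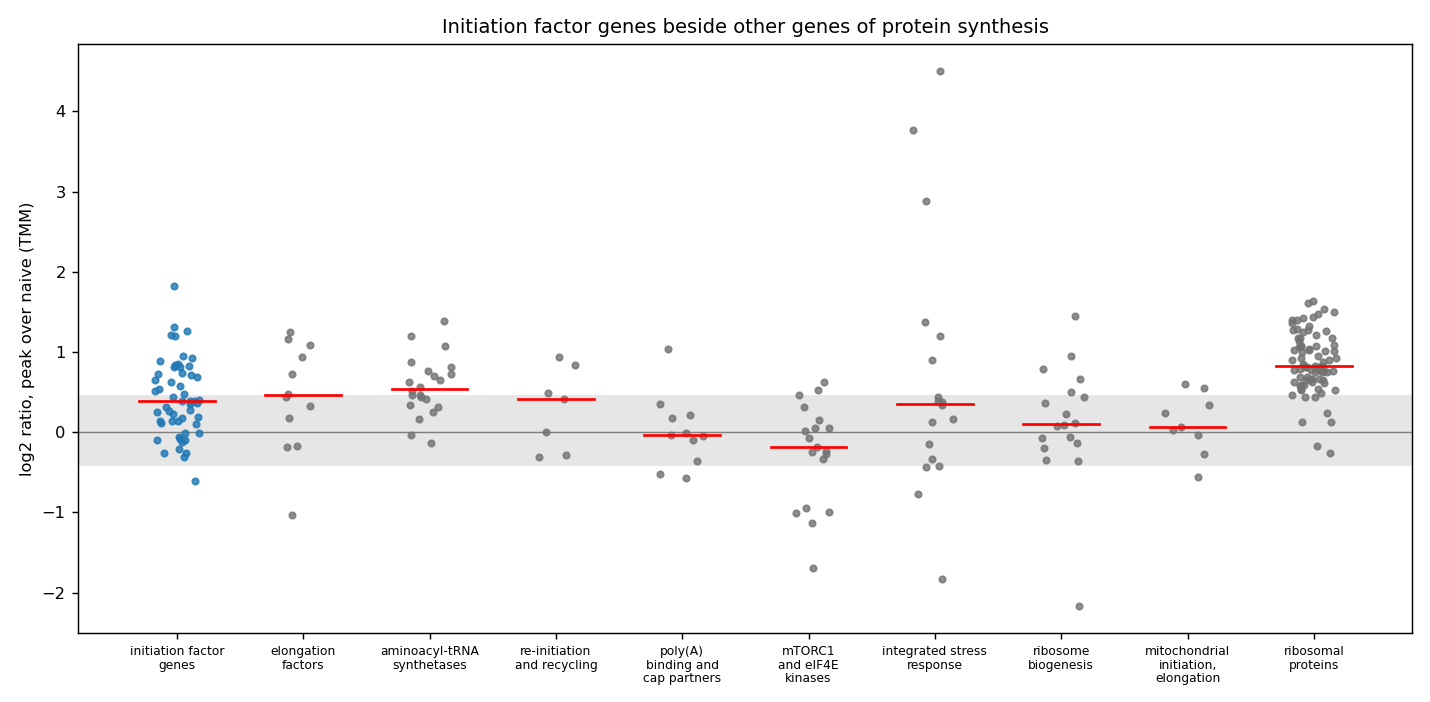
Log2 ratio of RNA-seq counts, peak over naive, for each initiation factor gene (blue) and each gene of other lists of protein synthesis (grey); red bars are medians, the shaded band spans the lower to upper quartile of all genes with a symbol. The median of the initiation factors is 0.38, that of ribosomal proteins 0.83 and that of mTOR complex 1 and eIF4E kinases -0.18.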

How the data were processed

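RNA-seq was made with a stranded total RNA kit after ribosomal RNA removal and MiGS with a ChIP-seq library protocol, per the labels' protocols. The submitters' processing notes name Bowtie2, TopHat, featureCounts and edgeR with build mm10; the sources used here do not give their roles, versions or whether counting used strand, which leaves overlapping genes, paralogs and pseudogenes uncertain. The deposited table gives raw counts per gene ID and FPKM, which the authors computed, per the file headers; 41797 of 42303 IDs had a symbol. The deposited MiGS signal per 50 bp window equals whole reads divided by a factor per library (100% whole within 0.001). Reads over windows were 30424742 and 36501153 (naive) and 43970332 and 35285601 (peak); a fragment can count in several windows. Chromosomes 1 to 19 were analysed.

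Counts were scaled by TMM over genes with at least 50 counts (edgeR 4.0.16), with 0.5 added on the log2 scale; intervals are exact binomial at 95%. MiGS sums were tested two-sided on log2(value + 1) by limma 3.58.1 with its variance trend, adjusted by Benjamini-Hochberg over regions with at least 20 reads; fold changes on that scale understate low regions. The design had assumed a count test; since the values are scaled, edgeR's quasi-likelihood test and DESeq2 1.42.0 on recovered reads were alternatives, as were other scalings, filters, windows and leaving out each library. Gene positions and strands came from RefSeq (GRCm38.p6), which matched all 54 genes and gave a strand, through the promoter table, for 40; the others were measured at both ends. The series text calls the MiGS replicates biological, but no label ties them to separate pools, so that the p-values rest on the spread between libraries, which may be technical. Scripts were tested on simulated data, for MiGS with the median spread given to all regions. There the MiGS test called 0% of 2-fold and 3% of 4-fold changes at starts or ends. Over bodies it called 3% and 85.5%. R 4.3.3 and Python 3.11.15 were used.

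Every initiation factor gene is named under its role. Counts and intervals are given for the 10 highest and 10 lowest ratios and for 15 core factors, up to 4 genes of the largest absolute ratio per pathway list, and the 3 smallest MiGS p in each direction. Other pathway genes (Atf3, Atf4, Cebpb, Cebpg, Ddit3, Psat1, Mtor, Myc, Dohh) were named after their values were seen. Members and lists were chosen with earlier results of these data known.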

Additional observations from a re-analysis of the deposited data

How the results depend on the processing

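The count of 5 genes at least 2-fold higher at peak was the same with library totals, DESeq2 size factors, upper quartile scaling, TMM over all rows (added after seeing the data), the ratio of the authors' FPKM, 1 added to each count and minima of 10 and 200 counts. It was 3 where the whole interval had to pass 2-fold and 3 with pseudogenes left out. With pseudogene counts added to their presumed parent genes (added after seeing the data) it was 3 too. The count of genes at least 2-fold lower was 0 in the same settings except with a minimum of 10 counts, where it was 1, Eif1-ps1. The median log2 ratio was 0.25 with upper quartile scaling, which also moved the median of all genes to -0.14, and between 0.30 and 0.42 with the other scalings.

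No MiGS call was made for these genes at gene starts or ends or over bodies with another value added before the log2 or other filters (0 to 0 with each library left out in turn), nor, at starts and ends, with other windows or both ends used for all genes (added after seeing the data). Leaving out a library leaves 1 in its condition, which is then assumed to vary like the other, and since few differences can pass with 2 against 2 libraries these counts of 0 say nothing about stability. The replicate numbers are not tied to anything by the labels and share only a number. The deviations of naive and peak replicate 1 from their condition means correlated at 0.18 over the 11241 starts or ends and at 0.11 over the 19012 bodies. With 2 libraries per condition, the deviations of replicate 2 are the same values with the sign turned and add nothing. With a replicate block, limma called 1 gene at its start or ends (Eif3i, adjusted p = 0.0302) and 1 body (Eif2b1, adjusted p = 0.0282), and edgeR called 0 and 2 (Eif2b1, adjusted p = 0.000635, and Eif3m, adjusted p = 0.0234). Over all genes, blocked limma called 47 of 11241 starts or ends higher and 665 lower, and 4 of 19012 bodies higher and 165 lower. Blocked edgeR called 26 starts or ends higher and 342 lower, and 96 bodies higher and 780 lower. At starts or ends 40 of 54 genes held fewer than 20 reads and were not tested, and RNA-seq has no replicate.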
